A study of Mus musculus with 8 samples.

Results

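The LIN28 axis and other genes of early developmental timing were followed in mouse E14-Tg2a embryonic stem cells that had been differentiated for 6 days towards precardiac mesoderm. The set holds 8 genes chosen by symbol, Lin28a, Lin28b, Trim71, Sall4, Hmga2, Igf2bp1, Igf2bp2 and Igf2bp3, and all 8 were found among the 55487 genes of the deposited count table. Because these genes were picked with their values in this comparison known, their levels and differences are given as a description without a test. Counts of transcript 3′ ends (QuantSeq) came from 4 libraries of the parental line, genotype WT, and 4 of line 4D, genotype Tbx1-/-. Both groups carry the same label for treatment, in vitro differentiation, and the day of harvest comes from the deposited table. Every mutant library came from line 4D, so an effect of genotype cannot be told apart from one of the line, and the labels number 4 replicates per line without saying whether they were separate cultures, so any p-value measures only the spread between these libraries.

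LIN28A and LIN28B are RNA-binding proteins that block the maturation of let-7, a family of microRNAs that rises as embryonic cells differentiate. Mature let-7 in turn represses the mRNAs of LIN28, of the ubiquitin ligase TRIM71, of the chromatin protein HMGA2 and of the IGF2BP mRNA-binding proteins, so that the axis works as a switch between early and late developmental states. SALL4 is a zinc finger transcription factor of pluripotent and early embryonic cells. In mouse embryos these genes are known for high expression at early stages and a decline as organs form.

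The let-7 family and its matches in the members' mRNAs are shown first, because they are what links the 8 genes at the sequence level. From the RefSeq table on GRCm38.p6, 10 mature names, let-7a to let-7g, let-7i, let-7k and miR-98, shared the seed GAGGUAG at bases 2 to 8, whereas let-7j carried GAGGUAU. The sequences below are printed 5′ to 3′ with the seed in capitals.
let-7a-5p: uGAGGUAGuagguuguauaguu
let-7c-5p: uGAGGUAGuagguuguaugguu
let-7g-5p: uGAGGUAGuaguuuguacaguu
let-7i-5p: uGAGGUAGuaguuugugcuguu
miR-98-5p: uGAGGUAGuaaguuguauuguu
miR-125b-5p: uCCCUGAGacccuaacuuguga
LIN28 recognises let-7 precursors in part through a GGAG tetramer in the loop between the hairpin arms. Of 12 let-7 and miR-98 hairpins in the table, 11 had both arms annotated, and 8 of these 11 held GGAG in the loop. The loops of let-7g, which holds it, and of let-7b, which does not, are shown with the tetramer in capitals.
let-7g loop: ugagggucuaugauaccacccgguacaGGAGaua
let-7b loop: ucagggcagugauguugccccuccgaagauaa
Mature microRNAs were not measured in these libraries, which capture polyadenylated RNA.

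The complement of the let-7 seed, CTACCTC, was searched on the sense strand of the longest annotated 3′ UTR of each gene in GENCODE M21. All 8 members held it, 21 matches in total, of which 14 were followed by an A. Among 21027 genes with an annotated 3′ UTR, 9.02% held at least 1 match. The share with a match rises with UTR length, and the members' UTRs ran from 1697 bases in Sall4 to 6337 bases in Igf2bp1, against a median of 960 over all genes. Among UTRs of like length, between 0.8 times the member's length and the reciprocal of that ratio, the share with a match was 11.4% for the length of Sall4 and 34.3% for that of Igf2bp1. Lin28b, Trim71, Hmga2 and Igf2bp1 had 4 matches each, Lin28a had 2, and Sall4, Igf2bp2 and Igf2bp3 had 1 each. At least 3 matches occurred in 32 of the 21027 genes (0.152%). That share was not taken among UTRs of like length, and the members with at least 3 matches had long UTRs, of 3014 to 6337 bases. Several members are textbook let-7 targets, so these matches describe the set and do not test it.

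For each member the match nearest the stop codon is printed, 5′ to 3′ on the mRNA strand, with the seed match in capitals.
Lin28a: cacagcctgttgaaCTACCTCatttttgc
Lin28b: cccgggcgggaagtCTACCTCatgcaagc
Trim71: acattgcctaagtcCTACCTCagcttaaa
Sall4: gggctttaatttatCTACCTCaattatct
Hmga2: ccgacattcaatttCTACCTCagcatcag
Igf2bp1: ctgtgcgaagtaaaCTACCTCaaggtgtg
Igf2bp2: cacacaaataaaagCTACCTCaggtgttt
Igf2bp3: gcatttttactcaaCTACCTCaggtattc
All 8 of these printed matches are followed by an A. In Lin28b and Hmga2 they begin 36 and 58 bases after the stop codon, and in Igf2bp1 1715 bases after it. The Lin28a match printed above lies on chromosome 4 from 134005190 to 134005196 (GRCm38, minus strand). The miR-125 seed match, CTCAGGG, was present in 4 members, Lin28a, Lin28b, Trim71 and Igf2bp3, once in each, and in 13.1% of all UTRs. Among UTRs of like length the share with this match was higher, from 17.2% for the length of Sall4 to 42.2% for that of Igf2bp1, and it was 37.8% for that of Trim71.

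**Figure D1:**
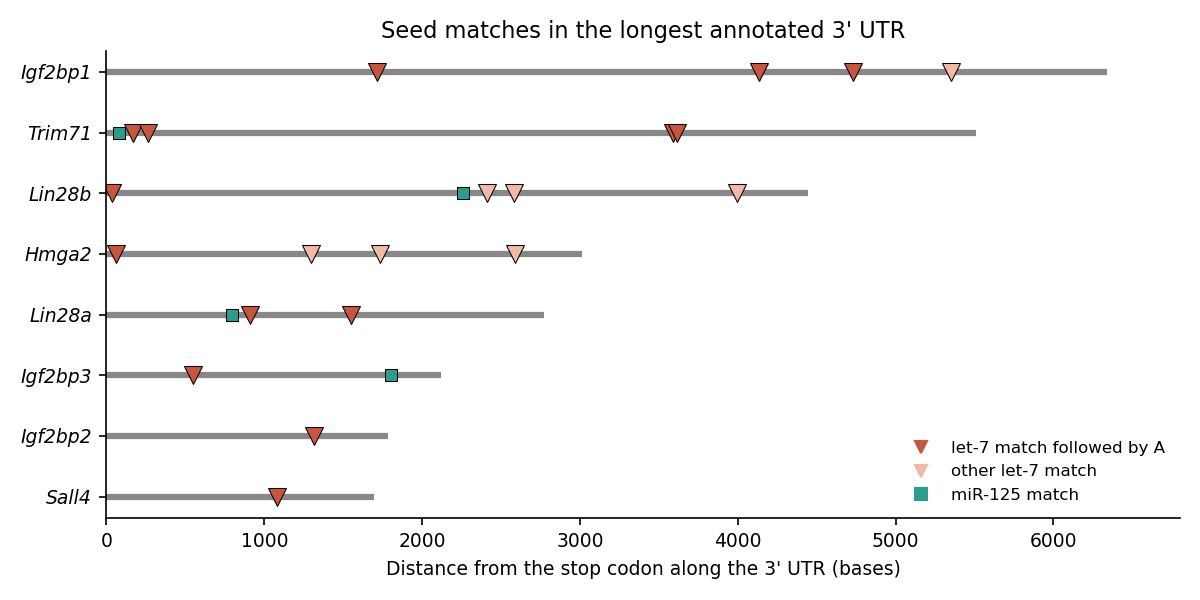
Each grey bar is the longest annotated 3′ UTR of a member, drawn from the stop codon with distance in bases on the x axis. Triangles mark let-7 seed matches (dark where an A follows) and squares mark miR-125 seed matches; the 4 members with 4 let-7 matches are Lin28b, Trim71, Hmga2 and Igf2bp1.

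Depth was between 3803561 and 6293907 counts per library, and the 8 members held 0.341% to 0.447% of them. Mutant library 4 stood apart: it had the fewest counts, 14850 genes with a count against 18213 to 19134 in the other 7 libraries, and 17.7% of its counts in the ribosomal RNA gene CT010467.1 against 8.90% to 13.0%. Its correlation of log2 level with the other libraries, taken across genes, was 0.857 to 0.881, and all other pairs were between 0.920 and 0.945. Differences for the members are therefore also given without it. Tbx1, the targeted gene, had 39, 65, 38 and 22 counts in parental libraries 1 to 4 and 3, 0, 1 and 0 in mutant libraries 1 to 4.

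Levels are given as CPM, library-size-normalised counts scaled by the trimmed mean of M values. A 3′ end count does not grow with transcript length, so CPM of different genes were set side by side without division by length. Hmga2 was the most abundant member with a mean of 1653 CPM over the 8 libraries, higher than 99.7% of the 13280 genes that passed the low-count filter. Igf2bp1 followed with 943 CPM, Igf2bp2 with 449.9 CPM, Igf2bp3 with 279.7 CPM and Trim71 with 270.3 CPM. Lin28a averaged 189.7 CPM, Sall4 171 CPM and Lin28b 49.7 CPM, so that the least abundant member still exceeded 71.8% of tested genes. All 8 members passed the low-count filter. The order held in all 8 libraries for 5 of the 7 neighbouring pairs. Igf2bp3 and Trim71 overlapped in both lines, with Igf2bp3 the higher in 1 of 4 parental and 4 of 4 mutant libraries. Lin28a and Sall4 overlapped too, with Lin28a the higher in 3 of 4 parental and 2 of 4 mutant libraries.

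**Figure D2:**
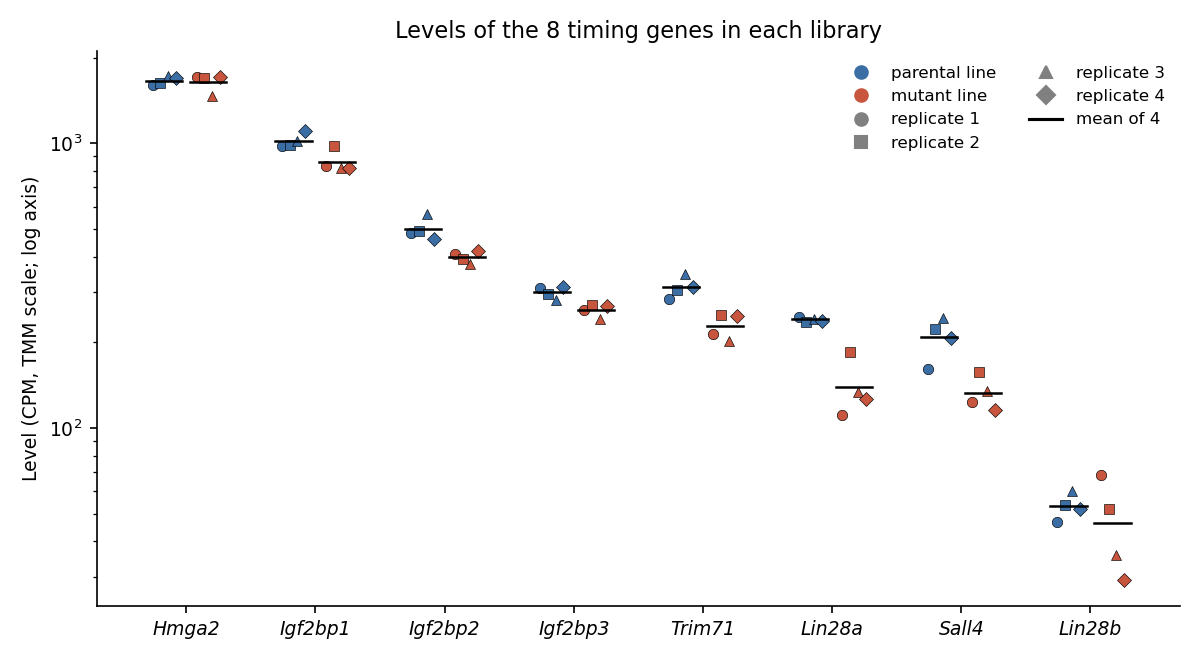
Levels of the 8 members in CPM on a log axis, with 1 point per library, marker shape by replicate number and a bar at the mean of 4 libraries. Lin28a, Trim71, Sall4, Igf2bp2 and Igf2bp3 show no overlap between the lines, while Hmga2 lies between 1466 and 1725 CPM in all 8 libraries.

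The LIN28 paralogs stand at the head of the axis. Lin28a (ENSMUSG00000050966.9, chromosome 4, 134003330 to 134018841, minus strand), which acts with terminal uridylyltransferases on let-7 precursors, was at 246, 236, 242 and 238 CPM in parental libraries 1 to 4. The values in mutant libraries 1 to 4 were 111, 184, 133 and 126 CPM. Every mutant library lay below every parental one, and mutant library 2 lay closest to them. The parental values lay close together, 240.7 ± 4.11 CPM (SD, n = 4), against 138.8 ± 31.8 CPM in the mutant line (SD, n = 4). The mean was 1.73-fold higher in the parental line, with a log2 difference (mutant minus parental) of -0.79 ± 0.14 (SE) and of -0.76 without mutant library 4.

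Lin28b (ENSMUSG00000063804.8, chromosome 10, 45376620 to 45486395, minus strand), the paralog best known from fetal liver blood progenitors, was at 46.9, 53.6, 59.8 and 52.0 CPM in parental libraries. Its mutant values were 68.2, 51.9, 35.8 and 29.1 CPM. Mutant library 1 exceeded every parental library and mutant libraries 3 and 4 were below all of them, so the lines overlapped. The means were 53.1 ± 5.33 and 46.2 ± 17.5 CPM (SD, n = 4), with a log2 difference of -0.19 ± 0.22 (SE). That value was -0.03 without mutant library 4 and -0.45 without mutant library 1.

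The share of Lin28a in the summed Lin28a and Lin28b counts, which no scaling of libraries can change, was 84.0%, 81.5%, 80.2% and 82.1% in parental libraries 1 to 4. It was 61.9%, 78.0%, 78.8% and 81.3% in mutant libraries 1 to 4. Mutant library 1 stood apart with a 95% exact Clopper-Pearson interval of 59.0% to 64.9%, which covers counting error only. The mean shares were 81.9% ± 1.57 and 75.0% ± 8.83 (SD, n = 4), and the ranges of the lines overlapped. Lin28a thus remained the major paralog in all 8 libraries.

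Trim71 (ENSMUSG00000079259.2, chromosome 9, 114507133 to 114564369, minus strand), also known as LIN41 and a classical let-7 target, represses mRNAs of differentiation. It was at 284, 305, 348 and 314 CPM in parental libraries 1 to 4 and at 213, 249, 203 and 247 CPM in mutant libraries 1 to 4. No mutant library reached the lowest parental one. The means were 312.6 ± 26.7 and 228 ± 23.6 CPM (SD, n = 4), and the log2 difference was -0.46 ± 0.11 (SE), or -0.50 without mutant library 4.

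Sall4 (ENSMUSG00000027547.17, chromosome 2, 168748332 to 168767943, minus strand) was at 161, 223, 244 and 208 CPM in parental libraries 1 to 4. Mutant libraries 1 to 4 had 123, 157, 135 and 116 CPM. The lines did not overlap, but the lowest parental and the highest mutant library were close, at 160.6 and 157.1 CPM. The means were 208.8 ± 35.3 and 132.9 ± 17.97 CPM (SD, n = 4), with a log2 difference of -0.65 ± 0.14 (SE) and of -0.60 without mutant library 4. Among the 4 Sall genes, Sall4 took 58.1% ± 0.50 of counts in parental and 55.6% ± 1.81 in mutant libraries (SD, n = 4), without overlap. For the Sall4 share, the intervals of the closest libraries, parental 1 (55.1% to 60.1%) and mutant 1 (54.6% to 60.1%), overlapped. The paralog Sall1 took 21.5% ± 1.37 and 17.0% ± 3.66, with overlap. Sall2 took 10.0% ± 1.92 and 13.7% ± 3.14, also with overlap. The share of Sall3 was 10.3% ± 0.62 in parental and 13.8% ± 2.83 in mutant libraries, again without overlap. The intervals of the closest libraries, parental 2 (9.61% to 12.3%) and mutant 3 (10.1% to 13.7%), overlapped too. The level of Sall3 was not higher in the mutant line, at 37.1 ± 6.44 and 32.6 ± 5.22 CPM (SD, n = 4).

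Hmga2 (ENSMUSG00000056758.14, chromosome 10, 120361275 to 120476469, minus strand), a chromatin architectural protein and the best known let-7 target in mammals, had nearly equal means in both lines. It was at 1597, 1625, 1725 and 1700.2 CPM in parental libraries 1 to 4 and at 1705, 1697, 1466 and 1711 CPM in mutant libraries 1 to 4. All mutant libraries but number 3 lay inside the parental range. The means were 1662 ± 60.5 and 1645 ± 119 CPM (SD, n = 4), with a log2 difference of -0.02 ± 0.08 (SE), whose sign turned to positive in some settings (0.03 without mutant library 3). Without mutant library 4 it was -0.04. Hmga2 made up 98.98% to 99.7% of the counts of Hmga1 and Hmga2 in every library, although Hmga1 has a near-identical copy, Hmga1b, with which reads could be shared.

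**Figure D3:**
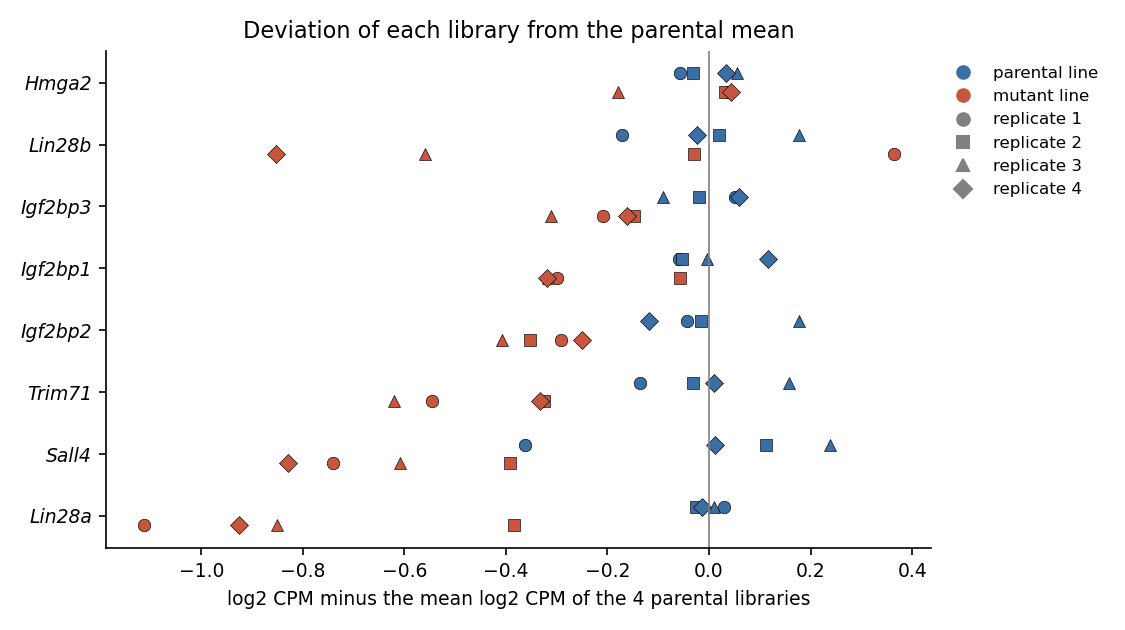
Deviation of each library from the mean log2 CPM of the 4 parental libraries (x axis, log2), parental in blue and mutant in red, with 1 point per library and marker shape by replicate number. Lin28a has the tightest parental points and 4 mutant points to the left, whereas the mutant points of Lin28b spread to both sides of 0.

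The IGF2BP proteins bind RNAs such as the mRNAs of Igf2 and Myc and the noncoding RNA H19. Igf2bp1 (ENSMUSG00000013415.9, chromosome 11, 95957163 to 96005940, minus strand) was at 981, 985, 1020 and 1107 CPM in parental libraries and at 829.8, 982, 820.3 and 819 CPM in mutant libraries. Mutant library 2 lay within the parental range and the other 3 below it. The means were 1023 ± 58.7 and 863 ± 79.6 CPM (SD, n = 4), with a log2 difference of -0.25 ± 0.09 (SE), or -0.22 without mutant library 4. Igf2bp2 (ENSMUSG00000033581.17, chromosome 16, 22059009 to 22163299, minus strand) was at 485, 494, 565 and 460.2 CPM in parental and 408, 391, 376 and 419.8 CPM in mutant libraries. Its lines did not overlap, and its log2 difference was -0.33 ± 0.10 (SE), or -0.36 without mutant library 4. Igf2bp3 (ENSMUSG00000029814.10, chromosome 6, 49085223 to 49214957, minus strand) was at 311, 295, 281 and 312 CPM in parental and 259, 270.4, 241 and 268 CPM in mutant libraries. Its lines did not overlap either, although its log2 difference of -0.21 ± 0.10 (SE) was smaller than that of Igf2bp1. Without mutant library 4 both were -0.22.

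Within the Igf2bp family the proportions differed little between the lines. Igf2bp1 made up 56.1% ± 1.92 of the summed counts in parental and 56.7% ± 2.34 in mutant libraries (SD, n = 4). Igf2bp2 made up 27.5% ± 2.38 and 26.3% ± 1.79, and Igf2bp3 16.5% ± 1.00 and 17.1% ± 0.58. The lines overlapped for all 3 shares. Each of the 3 genes was lower on average in the mutant line, and their proportions stayed within the spread of the libraries.

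**Figure D4:**
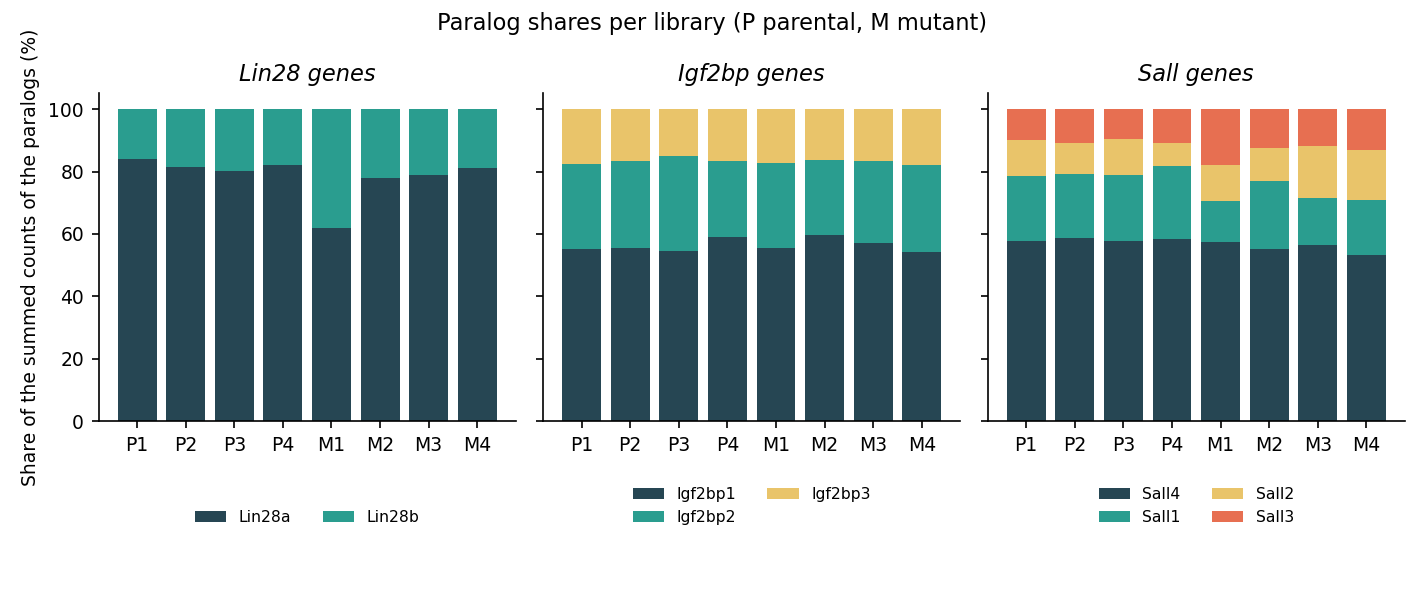
Stacked bars give the share of each paralog in the summed counts of its family, in percent, for parental (P) and mutant (M) libraries 1 to 4. Mutant library 1 has the largest Lin28b share at 38.1%, while the Igf2bp2 share runs from 23.8% to 30.3% with overlap between the lines.

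Across the set, all 8 members had a negative log2 difference (7 without mutant library 3 or with scaling by library size alone, where Hmga2 turned positive), with a median of -0.29, against a median of 0.00 and 49.8% negative values over the 13280 tested genes. The lines did not overlap for 5 members, beside 7.52% of tested genes, or 4.04% when only genes lower in the mutant line are counted; for all 5 the mutant line was the lower. An adjusted p under 0.05 over all genes in the edgeR quasi-likelihood test was met by 3 members, Lin28a, Trim71 and Sall4, beside 1.42% of tested genes (188, of which 99 were higher and 89 lower, the latter 0.67%). The Lin28a call held in each of 8 fits with a single library dropped. Sall4 passed in 4 of these and Trim71 in 3: both calls ended without parental library 2 or 3 or mutant library 1 or 3, and that of Trim71 also without parental library 4. Scaling by library size alone also ended the Trim71 call. DESeq2 called these 3 members and Igf2bp2. Since the members were chosen on this comparison, these counts and the calls under each setting are descriptive and do not test the members. The members' summed level was between 4110.0 and 4485 CPM in the parental line and between 3411 and 3983 CPM in the mutant line. In bulk RNA, fewer cells that express a gene and less RNA per cell cannot be told apart. All 8 genes lie on the minus strand, on 7 chromosomes, and none overlaps another gene annotated on the same strand except for microRNA genes inside Hmga2 and Igf2bp1.

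The genes with the closest profile to each member were sought among 6860 non-member genes with a mean of at least 20 CPM. Likeness was the root-mean-square difference of centred log2 CPM over the 8 libraries. Profiles were centred over both lines together, so likeness includes a similar difference between the lines and not only variation among libraries of a line. Nearest to Lin28a were Mif, a cytokine, at 0.09, Aldoa, a glycolytic enzyme, at 0.12 and C530008M17Rik at 0.13, where the profile of Lin28a itself had a spread of 0.45. Nearest to Sall4 were H1fx, Jag1 and Dkc1, each at 0.15 with a spread of 0.38. For Trim71 the order was Mnat1, Acvr2b and Ccdc34, from 0.07 to 0.08 with a spread of 0.26. Lin28b lay closest to Tprkb, Rspo3 and Cep135, from 0.11 to 0.12 with a spread of 0.37. Igf2bp1 lay closest to U2surp, Serbp1 and Eif4g1, Igf2bp2 to Fgfr1, Mettl17 and Samd4b, and Igf2bp3 to Golim4, Topors and Enah, with differences from 0.04 to 0.07. Hmga2 lay closest to Scd2, Zfp740 and Ubp1, each at 0.04, but its own spread was only 0.07. Of these 24 pairs, 10 recurred without mutant library 4.

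The other genes of the pathway were tested over all genes, but their lists were drawn up with earlier results of these data known, so the share called in them is a description and not independent evidence. In 7 lists around the axis, 140 non-member genes were tested, and 7 passed with an adjusted p under 0.05, 2 higher and 5 lower in the mutant line. That share, 5%, stands beside 1.42% of all tested genes, and the median log2 fold change was 0.01 in the lists against 0.00 over all tested genes, with 75 of 140 positive. The 7 called genes were Col1a2, Arid3b, Nap1l1, Sall1, H19, Cdx2 and Nfib. The count was 7 without mutant library 4, but ranged from 3 (without mutant library 3) to 12 (without mutant library 2) when single libraries were left out; it was 4 without parental library 2, 3 or 4 or mutant library 1.

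Genes that process, uridylate or degrade let-7 precursors did not pass the test, with 0 of 27 called and a median log2 fold change of 0.03; at an unadjusted p under 0.05 there were 2, DESeq2 called 1 and limma-voom 0. Dicer1, which cuts the precursor, was at 140.8 ± 21.4 CPM in the parental and 133.2 ± 7.0 CPM in the mutant line (SD, n = 4). For Tut4 and Tut7, the uridylyltransferases that LIN28A recruits, the log2 fold change was -0.09 ± 0.11 and -0.03 ± 0.19 (SE), and for Dis3l2, the nuclease that degrades uridylated precursors, it was -0.27 ± 0.36. L1td1, an RNA-binding partner of LIN28A, was at 6.99 ± 3.81 and 15.7 ± 9.42 CPM (SD, n = 4), with overlapping lines and an edgeR adjusted p of 0.334.

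Of the let-7 target list, 3 of 51 tested genes passed, 2 lower and 1 higher in the mutant line, and the median log2 fold change was 0.01. Arid3b, a transcription factor gene with 1 CTACCTC match in its 3′ UTR, was at 337, 335, 306 and 296 CPM in parental libraries 1 to 4 and at 169, 219, 157 and 204 CPM in mutant libraries 1 to 4. All mutant values lay well below the parental ones. The CTACCTC match of Arid3b begins 2148 bases after the stop codon, close to the end of the 2160-base UTR, and is followed by a T. Arid3b fell by 0.77 ± 0.12 (SE) on the log2 scale with an edgeR adjusted p of 0.00165, which stayed at or under 0.0137 over the 15 alternative settings. Nap1l1, a histone chaperone, fell from 1207 ± 56.3 to 896 ± 96.6 CPM (SD, n = 4), a log2 fold change of -0.43 ± 0.09 (SE) with an edgeR adjusted p of 0.0202, and the call was lost without parental library 2 (0.105), parental library 3 or mutant library 3, and with scaling by library size alone (0.0738). Col1a2, a collagen chain, rose from 597.8 ± 156.6 to 1143 ± 63.6 CPM (SD, n = 4) with an edgeR adjusted p of 0.00108, although its 3′ UTR also holds 1 match.

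Several classical targets did not pass. Igf1r, the IGF receptor, was at 490.1 ± 27.5 and 380.6 ± 30.9 CPM (SD, n = 4) without overlap, with a log2 fold change of -0.36 ± 0.10 (SE) and an edgeR adjusted p of 0.0732. It passed with DESeq2 at 0.00527, with limma-voom at 0.0311 and without mutant library 2 at 0.042. Nr6a1, an orphan receptor of trunk development with 8 CTACCTC matches, had -0.52 ± 0.20 (SE) and an edgeR adjusted p of 0.264. It passed without the low-count filter at 0.0125 and without mutant library 2 at 0.0453. For the cyclin genes Ccnd1 and Ccnd2 the log2 fold change was -0.58 ± 0.19 and -0.34 ± 0.13 (SE), with edgeR adjusted p of 0.169 and 0.287. Ccnd1 passed without the low-count filter at 0.0386, and Ccnd2 without mutant library 2 at 0.0135. Myc and Mycn, growth regulators, had 1.05 ± 0.50 and -0.11 ± 0.16 (SE), and Hmga1 had 0.56 ± 0.33. Myc was low, with 6.19 CPM in the parental line and 13.0 CPM in the mutant line.

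**Figure D5:**
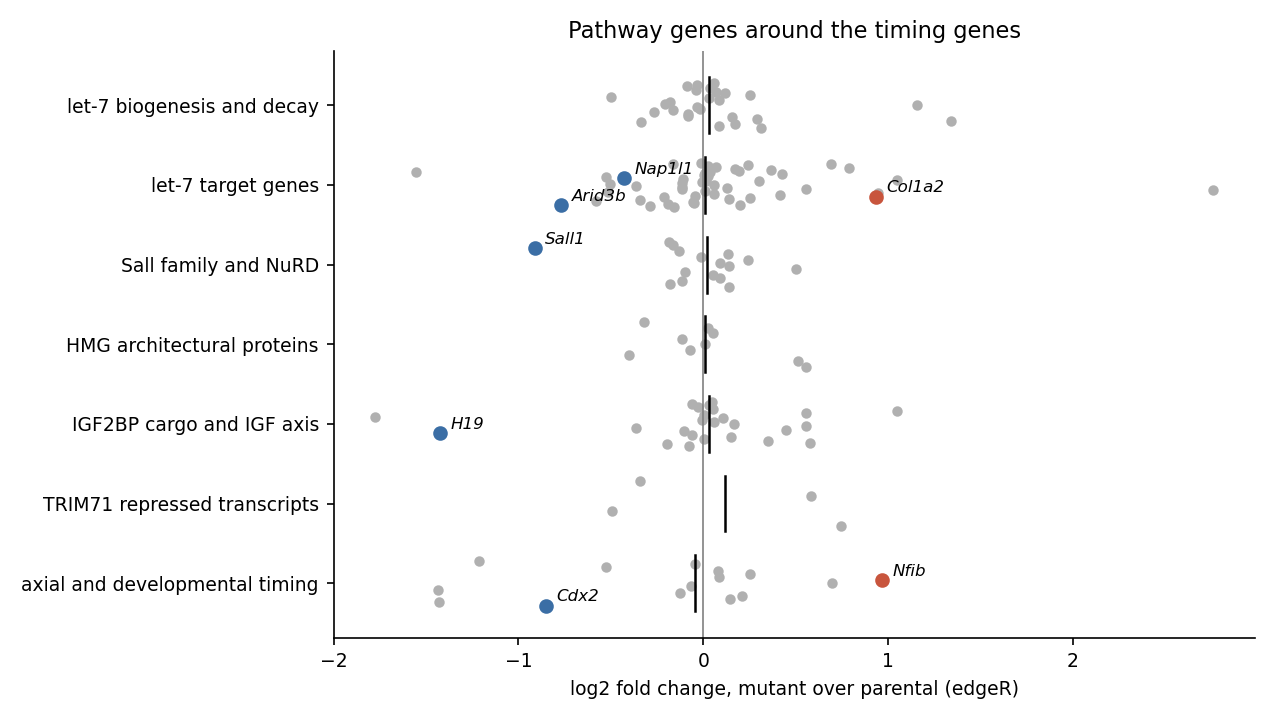
Each point is a tested non-member gene of 1 of 7 lists, placed by its log2 fold change (mutant over parental); black bars are list medians, and coloured, named points have an edgeR adjusted p under 0.05. Of the 7 named points, 5 lie left and 2 right of 0, while the list medians lie between -0.05 and 0.12.

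Of the Sall family and the NuRD repressor complex that SALL proteins bind, 1 of 16 tested genes passed. Sall1 fell from 77.4 ± 13.5 to 41.3 ± 14.4 CPM (SD, n = 4), a log2 fold change of -0.91 ± 0.21 (SE) with an edgeR adjusted p of 0.0358. Its lines overlapped, and dropping single libraries ended the call in 6 of 8 cases, the highest edgeR adjusted p being 0.146. Scaling by library size alone also ended it, at 0.0507. None of the 9 tested HMG genes other than Hmga2 passed, with 2 at an unadjusted p under 0.05 and 1 called by DESeq2 and 1 by limma-voom.

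Of transcripts bound by IGF2BP proteins and the IGF axis, 1 of 25 passed. H19, an imprinted noncoding RNA reported to bind both let-7 and IGF2BP1, was at 193, 190.3, 167 and 206 CPM in parental libraries 1 to 4. It was at 49.7, 51.9, 114 and 66.0 CPM in mutant libraries 1 to 4. The lines did not overlap, with mutant library 3 the closest. H19 fell by 1.42 ± 0.20 (SE) on the log2 scale with an edgeR adjusted p of 0.000792, and by 1.29 to 1.77 when single libraries were left out. Igf2, its imprinted neighbour and the cargo that names the IGF2BP family, was scarce at 3.19 ± 1.03 and 4.66 ± 2.35 CPM (SD, n = 4) and did not pass.

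Of 4 tested transcripts that TRIM71 represses, 0 passed in edgeR, with 3 at an unadjusted p under 0.05 and 0 called by DESeq2 or limma-voom. Directions were mixed, with a positive log2 fold change for 2 of the 4. Egr1, named with its values known, was lower in the mutant line without overlap. It was at 49.6, 52.7, 51.2 and 45.3 CPM in parental and 28.9, 44.9, 30.7 and 37.1 CPM in mutant libraries 1 to 4. Cdkn1a, a cell cycle inhibitor and direct TRIM71 target, was at 46.1 ± 10.4 and 77.1 ± 31.6 CPM (SD, n = 4), with a log2 fold change of 0.74 ± 0.24 (SE) and an edgeR adjusted p of 0.15. It passed without the low-count filter at 0.00303. In the list of axial and developmental timing, 2 of 15 passed. Cdx2, a homeobox gene of the posterior body, fell from 132.9 ± 35.6 to 73.7 ± 17.6 CPM (SD, n = 4) with an edgeR adjusted p of 0.0236. Nfib, a late-acting transcription factor, rose from 37.4 ± 11.6 to 72.9 ± 19.4 CPM (SD, n = 4) with an edgeR adjusted p of 0.033. The Cdx2 call was lost in 4 and the Nfib call in 5 of 8 cases when single libraries were dropped, the highest edgeR adjusted p being 0.0979 and 0.146. Gdf11, a ligand that times the trunk-to-tail transition, had a log2 fold change of -0.07 ± 0.21 (SE).

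Of 20 hairpin and host rows, 16 had 0 counts in every library, among them all hairpin rows named let-7. The 3 tested rows were Mir98, Huwe1 and Mir99ahg. Mir98 had 10, 9, 21 and 6 counts in parental and 12, 26, 10 and 0 in mutant libraries 1 to 4. Of the 3, only Mir99ahg passed, and it was chosen for mention with its values known. Mir99ahg (ENSMUSG00000090386.10, chromosome 16, 77236317 to 77773427, plus strand) is the host transcript of miR-99a, let-7c-1 and miR-125b-2, none of which overlaps its exons. It had 16, 8, 14 and 19 counts in parental libraries 1 to 4 and 66, 36, 62 and 46 in mutant libraries 1 to 4, so every mutant library exceeded every parental one. Its level rose from 2.65 ± 1.09 to 10.7 ± 2.03 CPM (SD, n = 4), a log2 fold change of 2.02 ± 0.47 (SE) with an edgeR adjusted p of 0.0395. Dropping single libraries ended the call in 6 of 8 cases, the highest edgeR adjusted p being 0.144, and limma-voom gave 0.0553. In all, 15 annotated genes overlap it on the same strand, these microRNA genes among them, and how reads shared by them were counted is not given in the sources used here.

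Markers of other cell types were examined beside these results. The 23 pluripotency genes summed to between 200.2 and 231 CPM in the parental line and between 173 and 217 CPM in the mutant line, with overlap. Of 14 tested, 1 passed, Klf2, which was higher in the mutant line and, like the other called markers below, was named with its values known. At an unadjusted edgeR p under 0.05 there were 5, while DESeq2 called 2 and limma-voom 1. The list had no common direction, with a positive log2 fold change for 8 of the 14 and a median of 0.02. Pou5f1, which defines pluripotent cells, failed the low-count filter with at most 14 counts in any library, and Nanog had 2.99 CPM in the parental line and 3.50 CPM in the mutant line. The 20 endoderm genes summed to between 417 and 760.1 CPM in the parental line and between 351 and 480.2 CPM in the mutant line, and 2 of 17 tested passed, Foxa2 and Krt18, both lower. The 17 erythroid and blood genes summed to between 191 and 263 CPM in the parental line and between 796 and 1115 CPM in the mutant line, without overlap, and 5 globin genes of 15 tested passed, all higher. The 12 cardiomyocyte genes summed to between 653 and 3758 CPM in the parental line and between 125 and 1002 CPM in the mutant line, and 0 of 11 passed in edgeR, DESeq2 or limma-voom, with 8 at an unadjusted p under 0.05. The part of these cell types in the members' differences was not tested. The 20 cell cycle genes summed to between 4267 and 4553 CPM in parental and between 4360 and 4559 CPM in mutant libraries. These ranges were nearly the same, but the list also holds the cell cycle inhibitors Cdkn1a, Cdkn1b, Cdkn1c and Cdkn2a. Cdkn1c, named with its values known, was at 1229 to 1619 CPM in parental and 1157.5 to 1382 CPM in mutant libraries. The sum is therefore not a measure of proliferation.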

How the data were processed

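The values are raw gene counts as deposited by the authors, whole numbers without normalisation, for 4 parental and 4 mutant libraries from day 6. Per the submitters' processing notes, STAR, featureCounts and the mm10 build were used; their settings, versions and gene annotation are not given in the sources used here. Sample titles gave groups and replicate numbers. Of 55487 genes, 55141 received a symbol from the reference annotation, and 13280 passed edgeR's filterByExpr.

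Lines were compared with edgeR 4.0.16 (quasi-likelihood test, trimmed mean of M values scaling) in R 4.3.3 over all genes, with Benjamini-Hochberg adjustment and a threshold of 0.05; the SE was derived from the fitted fold and its F statistic. The scripts were tested on simulated data. Alternatives were other scalings, no low-count filter, DESeq2 1.42.0, limma-voom (limma 3.58.1), a replicate block and leaving out each library. The members and lists were chosen with earlier results of these data known. Named genes were the members, Tbx1, a fixed list of pathway genes, at most 3 called genes for each pathway list, taken by p-value, and the 3 nearest profiles per member; others are stated to be chosen with values known. Seed matches used the GENCODE annotation of GRCm38, and microRNA sequences came from RefSeq. Depth limits precision for scarce genes, and intervals cover counting error only. None of the 12 pairs of libraries within a line was alike within sampling noise.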

Additional observations from a re-analysis of the deposited data

Results flagged for a closer look

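Of 80 groups of 4 libraries examined for a library far from the others, 4 had one, where chance gives about 1 in 20. Hmga2 was at 1466 CPM in mutant library 3, against 1697 to 1711 CPM in the other mutant libraries. Igf2bp1 was at 982 CPM in mutant library 2, against 819 to 829.8 CPM in the others. The Lin28a share of the Lin28 counts was 61.9% in mutant library 1, against 78.0% to 81.3% in the others. The Lin28b share of 38.1% in the same library is its complement, so both come from a single measurement.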

How the results depend on the processing

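The edgeR count of 188 called genes became 439 without the low-count filter and 399 with DESeq2, and ran from 103 to 235 when single libraries were left out. The pathway count of 7 became 14 without the filter, 14 with DESeq2 and 10 with limma-voom, and ran from 3 to 12 with single libraries left out. Scaling by library size alone called 157 genes, 63.7% of them higher against 52.7%, and 5 pathway genes, without Nap1l1 and Sall1. Among genes that did not pass, the sign of the log2 fold change turned for Dicer1 (-0.17 to 0.0088), Tut7 (-0.12 to 0.12), Dis3l2 (-0.62 to 0.021), Gdf11 (-0.24 to 0.012) and Nanog (-0.12 to 0.83) when single libraries were left out. The cause was not tested. Deviations from the mean of each line correlated at 0.102, 0.0155, -0.0331 and 0.0284 between same-numbered libraries 1 to 4 of the 2 lines. Between unlike-numbered libraries the correlations ran from -0.0783 to 0.0621, so that of number 1 lay above this range. With deviations centred on only 4 libraries per line, these values cannot exclude a pairing. Only the replicate numbers link the lines, and the main fit did not take them to pair libraries. With the replicate block, 234 genes were called, 172 of them shared with the 188, along with 7 pathway genes; the members called were Lin28a and Sall4, without Trim71, as with scaling by library size alone. Single genes with few counts, such as Igf2 and Nanog, are limited by depth.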
